A study of Mus musculus with 4 samples.

Results

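Homologous recombination repairs DNA double-strand breaks by copying an intact sister sequence, and the Fanconi anaemia pathway unhooks crosslinks that join the DNA strands and hands the resulting breaks to recombination. Both pathways are used mainly in cells that replicate their DNA, and the ATR and CHK1 kinases hold the cell cycle while they work. Pro-B cells divide and also cut their immunoglobulin heavy-chain locus, a break that is joined by the end-joining pathway rather than by recombination. The genes described here were 39 listed members of these pathways, and 37 of them had a probe set with no other gene symbol, out of 19937 genes with such a probe set in the table. They were measured by 40 probe sets, since Bard1 had 3 and Nbn had 2. No probe set could be named for Rbbp8, which encodes the resection factor CtIP, or for Xrcc2, a strand exchange factor.

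The 4 arrays held RNA of pro-B cells sorted by B220 and c-Kit from the marrow of wild-type C57BL/6 mice, which carried no transgene, and were labelled as replicates 1 to 4 of 1 group. The wider study addressed the effect of an NKX2-3 transgene on B cells, and transgenic arrays were not analysed here, so no comparison between groups was possible. The labels give no age of the mice and do not say whether each array came from a separate mouse, so the spread between arrays may be partly technical. The values are log2 intensities normalized by RMA, a method that corrects background and evens out arrays, and a level of one probe set cannot be set against that of another.

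Between pairs of arrays Pearson's r across all probe sets was 0.986 to 0.989, a description across genes that are not independent replicates. Early B-cell genes were above background in 14 of 15 cases, all but Rag2, where 63.5% of all genes were. So were 10 of 10 erythroid, 12 of 12 granulocyte and monocyte and 6 of 8 T and NK cell markers. Of the T and NK markers, Cd3g, Cd4 and Cd8a lay below the 99th percentile of silent receptor genes on every array (7.17 to 7.26). Ncr1 (log2 values of 8.43 to 9.37) and Cd3e (7.27 to 7.74) lay above it on every array, and Klrb1c on replicates 1 and 3 only. The early B-cell gene Vpreb1 lay below it on replicates 2 and 4 (7.16 and 6.89), and the erythroid Alas2 on replicate 1 (6.96). The part of these other cells in the signal of the repair genes was not tested. The methods describe marrow pro-B cells as low in B220 and positive for c-Kit, and state that purity was checked by flow cytometry after sorting. How far this sort removed the cells of these markers was not tested. The erythroid markers stood lowest on replicate 1, with a median log2 value of 8.21 there against 9.60 to 9.89 on the other arrays. Replicate 3 differed in sex-linked RNA, with Xist at a log2 value of 5.48 there and 13.04 to 13.17 elsewhere, and the Y-linked Eif2s3y at 10.05 there and 4.62 to 5.17 elsewhere. By these genes replicate 3 came from male and the other arrays from female animals. Whether the female arrays shared a mouse is not given. In such bulk RNA fewer cells of a type and less RNA per cell cannot be told apart.

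All 37 repair genes with a probe set were above background on every array, where 63.5% of all genes were. For each array a background line was drawn at the 95th percentile over receptor genes of smell and taste (1246 olfactory, vomeronasal and taste probe sets), taken as silent in marrow, and it lay between log2 values of 6.53 and 6.62. The member nearest to its line was Fan1, with a smallest margin of 0.93 on the log2 scale on replicate 3. The count of 37 was the same with a line at the 99th percentile, a line at the median of the array and a limma test against the line. A line at the 90th percentile and passing on 3 of 4 arrays are looser, so they could not lower the count.

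**Figure D1:**
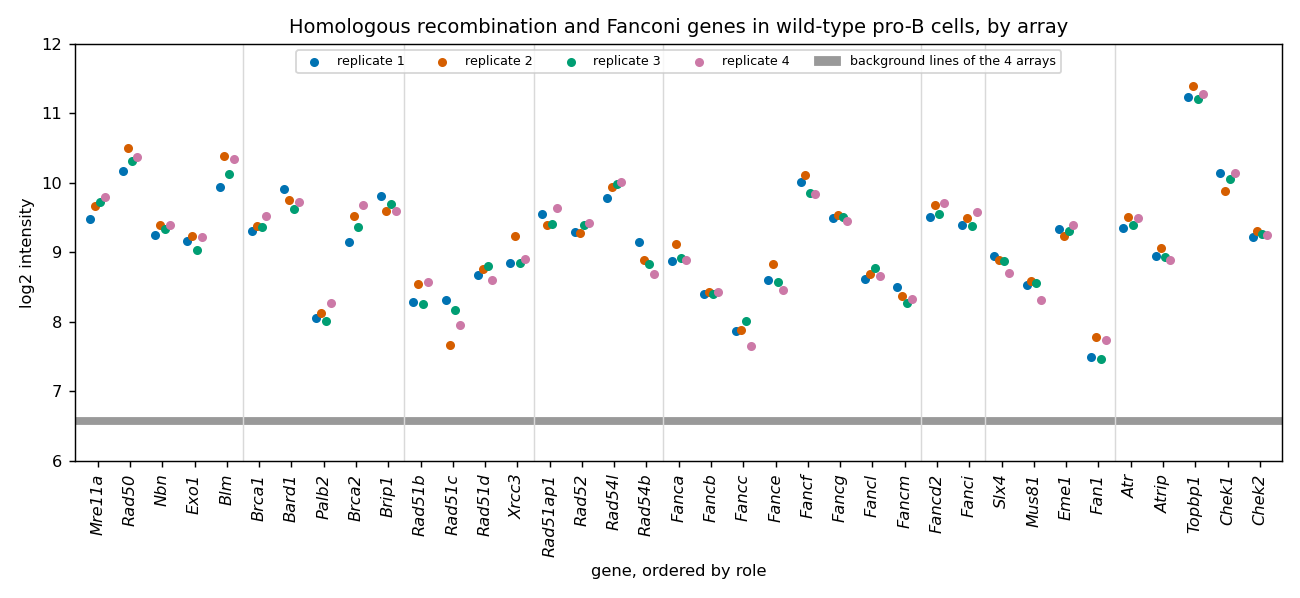
Log2 intensity (vertical axis) of the 37 measured repair genes (horizontal axis, ordered by role) in wild-type pro-B cells, replicates 1 to 4. Points are single arrays and the grey band spans the background lines of the arrays, from 6.53 to 6.62; every point lies above the band, and heights of different genes are not comparable.

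The spread of the repair genes between arrays was small. The SD over the 4 arrays had a median of 0.11 on the log2 scale, from 0.022 for Fancb to 0.28 for Rad51c, and the median over all 12658 genes above background was also 0.11. Between its highest and lowest array the median repair gene differed by 0.24 on the log2 scale, or 1.18-fold. A range of at least 0.5 on the log2 scale was reached by 2 of the 37 genes, Rad51c and Brca2, where 11.5% of all genes above background reached it. Of the 37 genes, 20 had an SD below the median of all genes above background and 17 an SD above it. Other lists from the same arrays had median SDs of 0.12 for DNA replication (37 genes), 0.12 for end joining (12 genes), 0.081 for mitosis (23 genes) and 0.069 for housekeeping (9 genes). The early B-cell genes (14 above background) had a median SD of 0.47 and the erythroid markers (10) one of 0.69. The repair genes thus lay among the lists of general cell functions and below both lineage lists, as a description without a test.

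**Figure D2:**
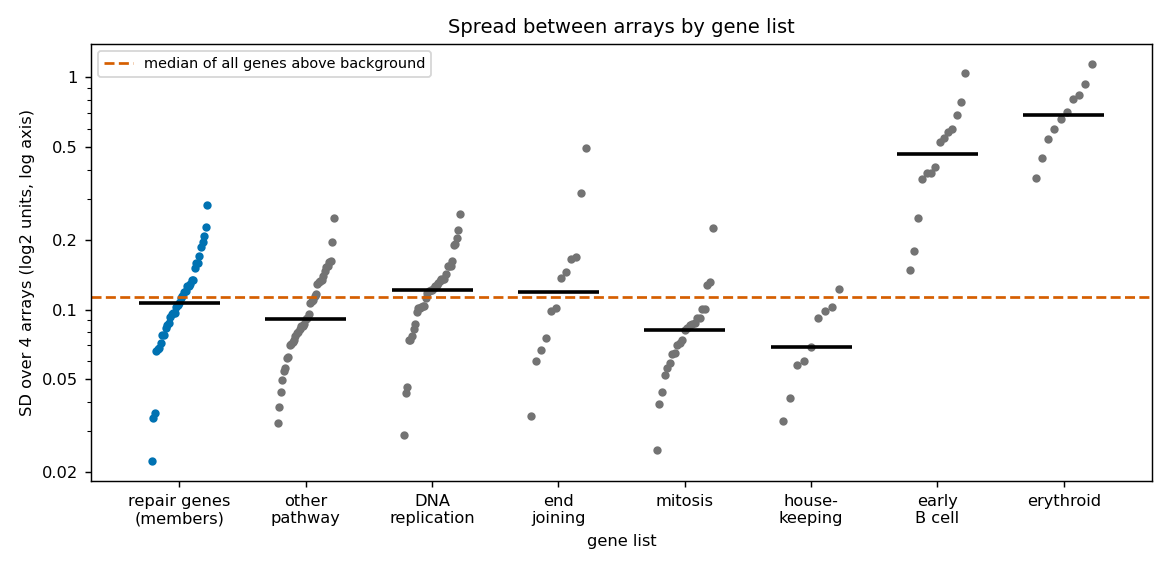
SD over the 4 arrays in log2 units (vertical axis, log scale) for genes above background in 8 lists (horizontal axis). Points are genes, bars are list medians and the dashed line is the median of all genes above background; the repair genes have a median of 0.11, beside 0.47 for early B-cell and 0.69 for erythroid genes.

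The members that detect and process broken ends include the nuclease Mre11a, the ATPase Rad50 and the adaptor Nbn, which act as 1 complex. Mre11a had log2 values of 9.48, 9.67, 9.72 and 9.79 on the arrays of replicates 1 to 4. Rad50 had log2 values of 10.17, 10.50, 10.31 and 10.37 in the same order. All 3 genes of the complex were lowest on replicate 1, as were 13 of the 37 members and 3675 of 12658 genes above background. Nbn had a mean log2 value of 9.35 ± 0.071 (SD, n = 4) and a range of 0.15. Blm, the helicase that resolves joint DNA molecules, had log2 values of 9.94, 10.38, 10.14 and 10.35 and was likewise lowest on replicate 1. Its difference there from the mean of the other arrays was -0.35 on the log2 scale. Exo1, an exonuclease that lengthens the resected end, had a mean log2 value of 9.16 ± 0.092 (SD, n = 4) and was lowest on replicate 3.

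Among the BRCA mediators, which prepare resected DNA for strand exchange, Brca2 varied most. Its log2 values were 9.15, 9.52, 9.37 and 9.69, a 1.45-fold range between replicates 1 and 4. Brca1, the ubiquitin ligase that promotes resection, had log2 values of 9.31, 9.38, 9.37 and 9.52. Both were lowest on replicate 1 and highest on replicate 4, though Brca1 had an SD of only 0.088. Palb2, which bridges the BRCA1 and BRCA2 proteins, had a mean log2 value of 8.12 ± 0.11 (SD, n = 4) and was also highest on replicate 4. Brip1, a helicase bound to BRCA1, had 9.68 ± 0.10 (SD, n = 4) and was highest on replicate 1.

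Bard1, the partner of BRCA1 in the ubiquitin ligase, was measured by 3 probe sets that disagreed. The brightest had log2 values of 9.91, 9.75, 9.62 and 9.72 on replicates 1 to 4, and the dimmest 8.08, 7.95, 7.82 and 7.79. The third, at 8.88, 9.10, 9.07 and 9.28, was lowest on replicate 1, where the other two were highest. The direction of Bard1 on replicates 1 and 4 therefore depended on the probe set. Both probe sets of Nbn were lowest on replicate 1, with log2 values there of 9.25 and 7.52. They differed in direction on replicate 4, by 0.068 and -0.016 from the mean of the other arrays, and on replicate 3, by -0.012 and 0.038.

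**Figure D3:**
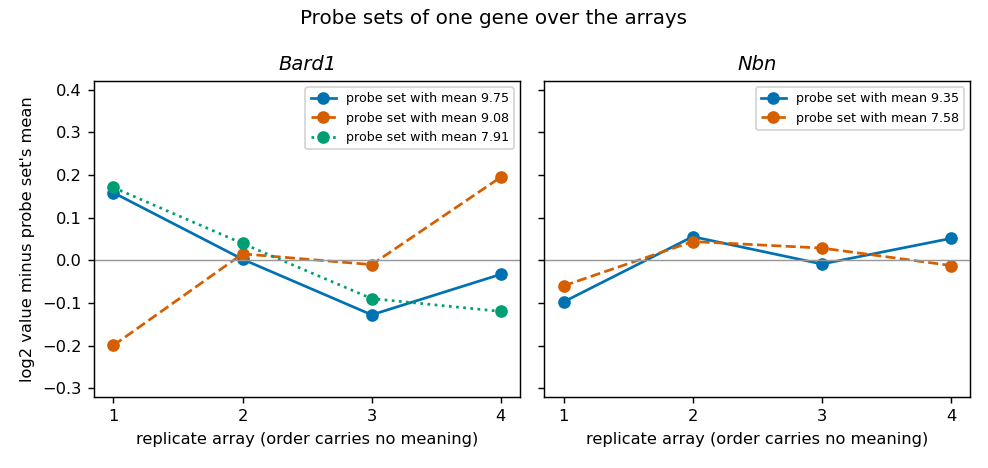
Log2 value minus the mean of the probe set over the arrays (vertical axis) on the 4 replicate arrays (horizontal axis), for the 3 probe sets of Bard1 (left) and the 2 of Nbn (right). Lines join the points of a probe set only to identify it; on replicate 1 the Bard1 probe sets with means of 9.75 and 7.91 lie above 0 and the one with a mean of 9.08 lies below it, while both Nbn probe sets lie below 0.

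The group of Rad51b, Rad51c, Rad51d and Xrcc3, whose proteins assist strand exchange, included the most variable member. Rad51c had log2 values of 8.32, 7.67, 8.17 and 7.96, a 1.57-fold range, and its SD was at percentile 93.8 of all genes above background. Xrcc3, whose protein binds that of Rad51c, had log2 values of 8.86, 9.24, 8.85 and 8.91. On replicate 2 the value of Xrcc3 stood apart from the others by Dixon's ratio of gap to range, as did that of Fanca, 2 of 37 members where 5.39% of all genes above background had such an array. Rad51c and Xrcc3 stood at opposite ends on replicate 2, where Rad51c was lowest and Xrcc3 highest. Rad51b had log2 values of 8.28, 8.55, 8.25 and 8.57, with replicates 2 and 4 above replicates 1 and 3. Rad51d had a mean log2 value of 8.71 ± 0.086 (SD, n = 4).

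The partners of strand exchange are the stimulator Rad51ap1, the annealing factor Rad52 and the translocases Rad54l and Rad54b. Rad51ap1 had log2 values of 9.55, 9.39, 9.41 and 9.64. Rad54b had log2 values of 9.15, 8.90, 8.84 and 8.68, highest on replicate 1 and lowest on replicate 4, while Rad54l was lowest on replicate 1 with a mean of 9.93 ± 0.11 (SD, n = 4). The related translocases thus differed in their order over the arrays. Rad52 had a mean log2 value of 9.35 ± 0.069 (SD, n = 4), a 1.10-fold range.

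The Fanconi core complex is a ubiquitin ligase, with Fancl as its catalytic subunit and Fancm as the translocase that brings it to DNA. All 8 of its genes were above background. Fancb, an X-linked subunit, had log2 values of 8.40, 8.44, 8.40 and 8.44, the smallest SD of the members (percentile 0.995 of all genes above background). Its value on replicate 3, the array that differed in Xist, was within 0.041 of the other arrays. Fancg had log2 values of 9.49, 9.54, 9.51 and 9.46, with an SD of 0.036. Larger spreads within the complex were those of Fance, with log2 values of 8.61, 8.83, 8.58 and 8.45, and Fancc, with 7.88, 7.89, 8.02 and 7.65, both lowest on replicate 4. Fanca had log2 values of 8.88, 9.12, 8.92 and 8.90, with replicate 2 apart from the others. The remaining subunits had mean log2 values of 9.96 ± 0.13 (Fancf), 8.69 ± 0.067 (Fancl) and 8.37 ± 0.10 (Fancm, all SD, n = 4). On replicate 2 all 8 core genes lay above the mean of the other arrays, with differences from 0.008 for Fancm to 0.29 for Fance on the log2 scale, on an array where 49.8% of all genes above background and 30 of the 37 members were higher.

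The core complex ubiquitinates the paired proteins of Fancd2 and Fanci, the step that opens crosslink repair. Fancd2 had log2 values of 9.51, 9.68, 9.55 and 9.71. Fanci had log2 values of 9.39, 9.50, 9.39 and 9.59. Replicates 2 and 4 lay above replicates 1 and 3 in both, as they did in Rad50, Blm, Brca2, Atr and further members. The order was thus not particular to this pair, and its share over all genes was not counted.

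Structure-selective nucleases cut the DNA around a crosslink or at a joint molecule. Slx4, the scaffold on which several of them assemble, had log2 values of 8.95, 8.89, 8.88 and 8.70. Mus81 and Eme1, the subunits of 1 nuclease, had mean log2 values of 8.50 ± 0.13 and 9.32 ± 0.066 (SD, n = 4). On replicate 4 these partners differed, Mus81 being lowest there and Eme1 highest. Fan1, a nuclease recruited by ubiquitinated FANCD2, had log2 values of 7.50, 7.78, 7.47 and 7.73. Like Fancd2, Fanci and members of other roles, it was higher on replicates 2 and 4 than on replicates 1 and 3.

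The checkpoint members had the smallest median SD of the 8 roles, 0.078 on the log2 scale over 5 genes. Atr, the kinase that senses stalled replication, had log2 values of 9.35, 9.51, 9.39 and 9.50, and its partner Atrip had a mean of 8.96 ± 0.078 (SD, n = 4). Topbp1, the activator of ATR, had a mean log2 value of 11.28 ± 0.083 (SD, n = 4). All 3 were highest on replicate 2, as were 15 of the 37 members and 3142 of 12658 genes above background. Chek1, the effector kinase of ATR, was lowest on that array, at 9.88 against 10.06 to 10.15 elsewhere. Chek2, the effector kinase of ATM, had a mean log2 value of 9.26 ± 0.034 (SD, n = 4), a 1.06-fold range.

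**Figure D4:**
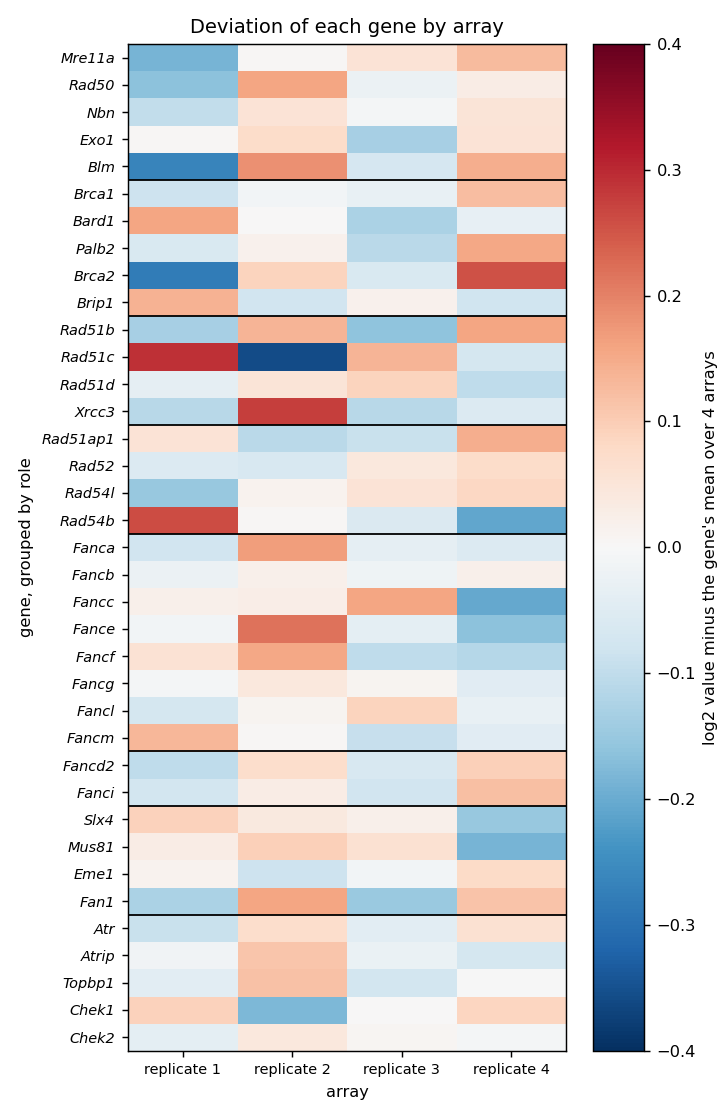
Log2 value of each repair gene on an array minus its mean over the 4 arrays (colour scale, red above and blue below the mean), for 37 genes grouped by role (rows, separated by lines) and the 4 replicate arrays (columns). Blm and Brca2 are bluest on replicate 1 and Rad51c on replicate 2, while Fancb is nearly white throughout.

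The direction of the members on single arrays was then counted. On replicate 2, 30 of 37 repair genes were higher than the mean of the other arrays, with a median difference of 0.055 on the log2 scale, where 49.8% of all genes above background were higher. The 7 exceptions were Rad51c, Chek1, Rad51ap1, Eme1, Brip1, Rad52 and Brca1. The count was 30 after quantile normalization, median centring and cyclic loess, and 25 of 37 without replicate 1.

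On the other arrays the split was closer to even. On replicate 1, 13 of 37 were higher (median difference -0.054), where 52.2% of all genes above background were. On replicate 3 the count was also 13 (median difference -0.038), beside 52.3% of all genes. On replicate 4 it was 19 (median difference 0.026), beside 45.5%. These medians depended on the processing and on single arrays. On replicate 1 the median was -0.088 after median centring (10 of 37 higher) and -0.026 without replicate 2. On replicate 3 it was -0.024 after median centring, -0.065 without replicate 1 and -0.015 without replicate 2. On replicate 4 it was 0.041 to 0.044 after the 3 other normalizations and 0.055 without replicate 2. The repair genes were more often below than above the other arrays on replicates 1 and 3, by small amounts, and arrays are not groups, so these counts have no test.

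Other lists moved on the same arrays. DNA replication genes, such as helicase and polymerase subunits, were higher on replicate 2 in 27 of 37 cases (median difference 0.050) and on replicate 1 in 5 of 37 (-0.17). Mitosis genes were higher on replicate 2 in 7 of 23 cases (-0.028) and end-joining genes in 7 of 12 (0.019). After quantile normalization, median centring and cyclic loess the mitosis count was 9 (-0.0072), 7 (-0.027) and 10 (-0.0082) of 23. In the same order it was 27, 27 and 29 of 37 for DNA replication, and it stayed at 7 of 12 for end joining. Erythroid markers were higher on replicate 2 in 10 of 10 cases (0.66), while early B-cell genes were in 2 of 14 (-0.25) and granulocyte and monocyte markers in 2 of 12 (-0.39). Over the arrays the median log2 value of the list ran from 8.21 to 9.89 for erythroid, from 10.41 to 11.54 for early B-cell and from 11.71 to 12.43 for granulocyte and monocyte markers. The part of these cell-type differences in the counts of the repair genes was not tested.

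**Figure D5:**
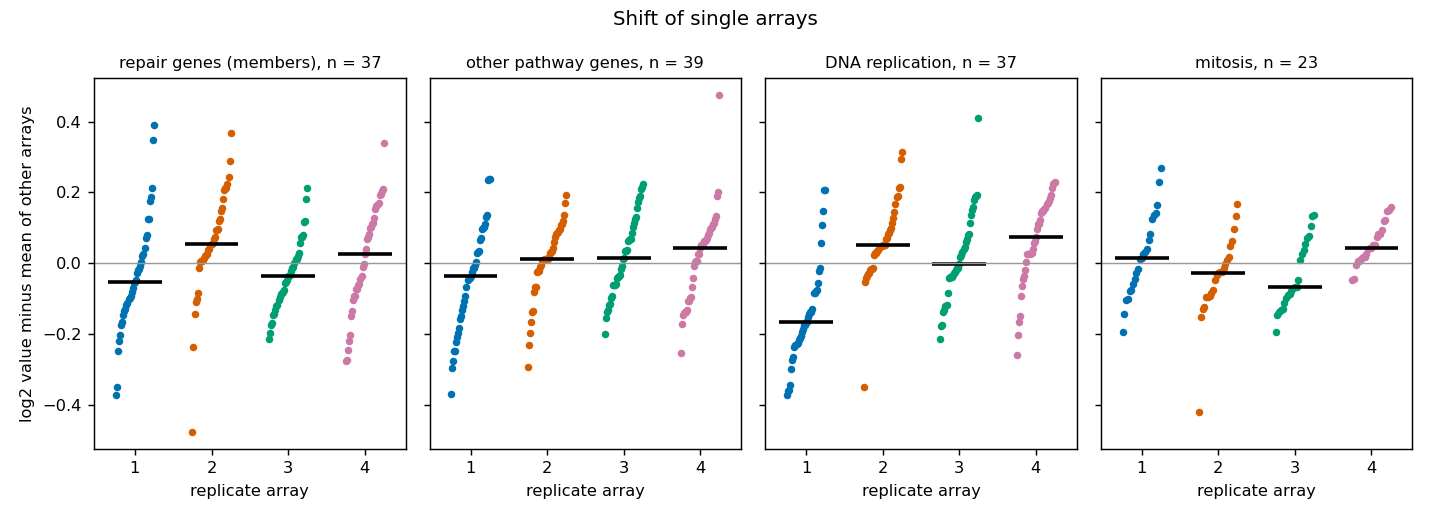
Log2 value on 1 array minus the mean of the rest (vertical axis) by replicate (horizontal axis), in 4 gene lists. Each point is a gene and each bar a median; on replicate 2 the repair genes have 30 of 37 points above 0, and on replicate 1 the DNA replication genes have 5 of 37.

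A wider list of 47 partner genes of the same pathways was examined beside the members. Of these, 39 had a probe set of their own and all 39 were above background (63.5% of all genes), with a median SD of 0.091 on the log2 scale. On replicate 2, 25 of 39 were higher than the mean of the other arrays (median difference 0.012), beside 49.8% of all genes above background. On replicate 1, 15 of 39 were (-0.037), beside 52.2%. Rpa3, a subunit of the single-strand binding complex, had the largest spread of them, with log2 values of 9.72, 9.59, 9.76 and 10.16 on replicates 1 to 4. The partners of the members therefore showed a spread of the same order.

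Promoter sequences were searched because the members act mainly in replicating cells, and genes of that phase often carry binding sites of E2F, a family of cell cycle transcription factors. RefSeq windows of 250 bases before to 50 bases after the start (GRCm38.p6) were held for 31 of the 39 members. The E2F motif, taken as TTTCCCGC, TTTCGCGC, TTTGCCGC or TTTGGCGC on either strand with each gene counted once, was present in 6 of them (19.4%), Bard1, Brca2, Rad51c, Fancg, Topbp1 and Chek2. It was present in 2.61% of 27025 genes with a window and in 4.56% of the 10138 of these that were above background. The CHR motif TTTGAA was present in 3 of the 31 (9.68%) and in 20.2% of all genes, and the CCAAT box in 18 (58.1%) and 41.1%. A match is a description of the letters and not a site. The spread of the 6 genes with the E2F motif ran from an SD of 0.034 (Chek2) to 0.28 (Rad51c), nearly the whole span of the members.

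The 250 bases before the start are given for 3 of the 6 genes, chosen to show the motif in a gene of large spread (Brca2) and in 2 genes of small spread (Chek2 and Fancg), with the match in capitals. They lie at chr5:150522371-150522620 on the plus strand (Brca2), chr5:110839733-110839982 on the plus strand (Chek2) and chr4:43010302-43010551 on the minus strand (Fancg), each written in the direction of transcription. The match begins 168 bases before the start in Brca2, 152 in Chek2 and 52 in Fancg, and in Brca2 and Chek2 it is on the opposite strand.
Brca2: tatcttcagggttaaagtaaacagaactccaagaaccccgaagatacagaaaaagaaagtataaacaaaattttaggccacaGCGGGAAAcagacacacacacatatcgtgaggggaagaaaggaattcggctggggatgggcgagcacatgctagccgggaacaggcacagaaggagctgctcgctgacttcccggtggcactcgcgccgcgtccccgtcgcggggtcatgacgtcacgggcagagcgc
Chek2: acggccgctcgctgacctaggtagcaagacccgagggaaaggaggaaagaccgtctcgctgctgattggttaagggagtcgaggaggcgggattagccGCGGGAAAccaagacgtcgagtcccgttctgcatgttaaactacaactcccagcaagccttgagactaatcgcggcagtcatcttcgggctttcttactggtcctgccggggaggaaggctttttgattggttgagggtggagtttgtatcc
Fancg: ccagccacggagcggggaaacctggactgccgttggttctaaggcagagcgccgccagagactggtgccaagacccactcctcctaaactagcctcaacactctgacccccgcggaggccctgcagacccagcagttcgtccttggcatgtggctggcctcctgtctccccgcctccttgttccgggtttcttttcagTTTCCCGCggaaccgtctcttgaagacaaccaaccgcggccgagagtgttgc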

How the data were processed

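RNA of 4 samples of sorted wild-type pro-B cells was hybridized to Affymetrix mouse gene arrays. The authors deposited log2 intensities per probe set (34760, from 2.27 to 14.6), with RMA named in the methods for both correction and normalization. The methods also name a filter on dim probe sets, whose threshold is not given in the sources used here. Dim probe sets were still among the deposited values, where 7279 of 19937 genes were not above background. The shares over all genes therefore include dim genes. Which arrays were normalized together is not given in these sources either. The number of arrays limits the precision. Columns were matched by name, with 0 left over.

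Probe sets were named from the platform annotation (21640 with 1 symbol, 1321 with several, 11799 with none), and only those with 1 symbol were used. A gene with several probe sets was given by the one with the highest mean, and counted as above background when any one of them passed the line of every array. Of the 1246 receptor probe sets, 45 passed in the same way. Shifts of an array were taken against the mean over the others. Every member with a probe set was named, with its values on each array for the 10 largest SDs, genes with 1 array far from the others and the first gene of each role; further genes given by array were chosen after their values were seen. The members and lists were chosen with earlier results of these data known. Computation used Python 3.11.15 with pandas 2.3.3 and numpy 2.4.6, and limma 3.58.1 in R 4.3.3, and the scripts were tested on simulated data. Alternatives were the 99th and 90th percentiles, a line at the median of the array, passing on 3 of 4 arrays, limma's test of the margin over the line (one-sided, adjusted by Benjamini-Hochberg over all probe sets), quantile normalization, median centring, cyclic loess, the mean of a gene's probe sets, the range, no filter and leaving out each array.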

Additional observations from a re-analysis of the deposited data

Results flagged for a closer look

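Of the 37 repair genes, 2 had 1 array far from the others by Dixon's ratio at the 95% level, the gap to the nearest array divided by the whole range. Chance gives about 1 in 20, or 1.85 genes, and 5.39% of all genes above background passed. For Xrcc3 the ratio was 0.856, with a log2 value of 9.24 on replicate 2 against a mean of 8.87 on the other arrays. For Fanca it was 0.831, with 9.12 on replicate 2 against 8.90.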

How the results depend on the processing

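No paired analysis was possible because the 4 arrays form a single group. Of 388 values recomputed under the alternatives, 385 stayed within the replicate spread or, for counts and the median SD, within 1.5 times. Many of these could not have moved. Median centring keeps the mean of every gene, and leaving out an array moves a gene's mean by less than its SD. A median shift was allowed to move by up to 0.11 with its sign kept, more than the shifts themselves. The count of 385 is therefore no measure of how stable the results are. All 37 genes were above background under each alternative run. The range in place of the SD gave a median of 0.243, which is larger by construction. With the mean of a gene's probe sets Nbn had a mean log2 value of 8.46 and Bard1 one of 8.91, since their probe sets differ in level. Leaving out each replicate gave 25 to 26 genes higher on replicate 2 and a median SD from 0.0998 to 0.121. An alternative was chosen after seeing the data: among genes within the members' range of mean value, the median SD of all genes was 0.113. With 4 arrays of 1 group, differences of the size seen here cannot be tested against a condition.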

Other observations

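Some partner genes lay close to the background line, and are named here after their values were seen. Dmc1, the recombinase of meiosis, had log2 values of 7.12, 6.77, 6.85 and 7.02 on replicates 1 to 4, above lines of 6.53 to 6.62 but below the 99th percentile of the receptor probe sets on every array (7.17 to 7.26). Rmi2, a partner of the BLM helicase, had log2 values of 6.97, 7.08, 6.87 and 6.98, and also lay between these lines on every array.

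The list of end-joining genes includes those that seal the breaks of V(D)J recombination, and also others such as Polq, Parp1 and Lig3. Of its 12 measured genes, 2 were higher on replicate 4 than the mean of the other arrays (median difference -0.069 on the log2 scale). Among all genes above background 45.5% were. Of the repair genes 19 of 37 were higher there, and of the early B-cell genes 4 of 14 (median difference -0.56). The part of the cell types in this was not tested.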
